A study of Homo sapiens with 6 samples.

Results

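Replication-dependent histone genes encode the core histones H2A, H2B, H3 and H4 and the linker histones H1 that package newly made DNA in S phase. They were taken from the RNA-seq table by name, as every transcript of a protein-coding gene whose current symbol is H1-1 to H1-6 or begins with H2AC, H2BC, H3C or H4C and a number. Of 207167 transcripts of 63190 gene identifiers, 91 transcripts of 66 gene identifiers met this rule (6 genes of H1, 17 each of H2A and H2B, and 13 each of H3 and H4). The RNA-seq compared 3 libraries of cells that overexpress DIS3L2 D391N with 3 libraries of control cells. DIS3L2 is a 3′ to 5′ exoribonuclease that degrades RNAs with an oligo(U) tail, and D391N is a substitution in its catalytic site. Per the study's methods the cells are HEK293T-Rex, a human embryonic kidney line with a tetracycline repressor, and doxycycline induces the integrated construct. The methods do not say whether the controls received doxycycline, and the labels name the line HEK293 for all 6 libraries. All D391N libraries come from a single cell line, so that the construct and the line cannot be told apart. Nothing in the sources says that the 3 replicates were separate cultures, and p-values then measure the spread between these libraries, which may be technical.

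Replication-dependent histone mRNAs are the only known metazoan mRNAs without a poly(A) tail. They end instead in a conserved stem-loop that the stem-loop binding protein SLBP holds from processing in the nucleus to translation. When DNA synthesis stops, TUT7 adds uridines to the 3′ end, and exonucleases such as ERI1 shorten the mRNA through the stem-loop. The genes lie in clusters and NPAT activates their transcription at the histone locus body. The libraries were made from rRNA-depleted total RNA, a method that does not select on the poly(A) tail.

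The stem-loops are shown because they form the 3′ end that the members share and that uridines are added to. In the GRCh37 genome, the 300 bases after the stop codon were searched for a 16-base stem-loop with 6 base pairs and 4 loop bases (GGNNNTNNNNANNNCC, with pyrimidines in the 5′ arm and purines in the 3′ arm after the first pairs). It was found in 64 of the 65 member genes searched, and H2BC12L of chromosome 21 was the gene without it. Of 19639 other protein-coding genes, 29 (0.148%) held a match. In the members its first base lay between 23 and 68 bases after the stop codon (median 36). The sequences below are the stem-loop in capitals with 5 flanking bases on each side in lower case, on the strand of the gene. They show 6 of the 10 versions found, in members described further on.
H1-4 (chr6:26157323-26157338, + strand): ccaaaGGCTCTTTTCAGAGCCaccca
H2AC19 (chr1:149823141-149823156, + strand): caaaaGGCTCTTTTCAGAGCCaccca
H2AC20 (chr1:149858941-149858956, + strand): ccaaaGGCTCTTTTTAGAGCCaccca
H2BC5 (chr6:26158815-26158830, + strand): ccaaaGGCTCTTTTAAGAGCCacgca
H2BC10 (chr6:26273620-26273635, + strand): ccaaaGGCTCTTCTAAGAGCCaccca
H4C3 (chr6:26104545-26104560, + strand): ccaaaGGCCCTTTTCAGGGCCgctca
H4C12 (chr6:27798956-27798971, - strand): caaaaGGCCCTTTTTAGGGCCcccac
The version of H1-4 and H2AC19 was the most frequent, with 38 genes of H1, H2A, H2B and H3. The version of H2BC5 was held by 8 genes, among them H2BC4, H2BC11 and H2BC12. All 13 H4 genes began with GGCCC, 8 of them with the version of H4C3 and 4 with that of H4C12, and no gene of another class did.

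Promoter motifs are described as a feature of the members, and their relation to the levels was not tested. RefSeq promoters of GRCh38.p14 were matched by symbol for 59 of the 66 genes, and the 250 bases before the start were searched on both strands for 3 motifs that do not overlap in their letters. TATAAA, the TATA box, was found in 66.1% of the members and in 11.1% of all 27305 promoters. CCAAT, which NF-Y binds, was found in each of the 6 H1, 15 H2A, 16 H2B and 11 H3 promoters, and in 2 of 11 H4 promoters, against 33% of all promoters. ATTTGCAT, the octamer that POU2F1 binds, was found in 11 of 15 H2A and 12 of 16 H2B promoters, in 1 of 11 H3 promoters and in no H1 or H4 promoter, against 1.66% of all promoters. H2A and H2B genes often lie head to head and share these bases, so that the same site can count for both genes. The only octamer of H2AC20, at 197 bases, is the octamer of H2BC21 at 46 bases. Likewise the TATAAA match at 212 bases in H2BC21 is that at 29 bases in H2AC20. The promoters of H2BC21 and H2BC10 are shown, since these genes had the lowest levels relative to the controls among the tested H2B genes, and the capitals mark the 3 motifs.
H2BC21 (GRCh38.p14, chr1:149886683-149886932, - strand): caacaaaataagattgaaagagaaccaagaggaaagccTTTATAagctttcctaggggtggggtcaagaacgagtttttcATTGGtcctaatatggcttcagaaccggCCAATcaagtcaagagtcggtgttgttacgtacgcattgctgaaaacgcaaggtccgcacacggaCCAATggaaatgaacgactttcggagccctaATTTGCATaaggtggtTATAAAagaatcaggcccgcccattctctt
H2BC10 (GRCh38.p14, chr6:26272681-26272930, + strand): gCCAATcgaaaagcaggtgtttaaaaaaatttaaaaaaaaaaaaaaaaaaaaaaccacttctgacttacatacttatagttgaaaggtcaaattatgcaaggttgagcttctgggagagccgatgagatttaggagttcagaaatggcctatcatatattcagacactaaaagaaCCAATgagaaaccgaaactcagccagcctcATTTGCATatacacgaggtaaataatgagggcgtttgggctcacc
In H2BC21 the octamer began 46 bases before the start, next to a TATA box at 30 bases. In H2BC10 the octamer began 45 bases before the start, and TATAAA was not in this window.

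The deposited levels are RPKM (reads scaled to transcript length and library size) on a natural log scale, and they were changed back to RPKM. The depth, estimated from the posterior variance of single-transcript genes, was lowest in D391N replicate 2 (19200000 reads) and highest in control replicate 2 (31900000 reads). DIS3L2, summed over its transcripts, was at 369, 467 and 512 RPKM in the D391N libraries and at 11.8, 12.9 and 14.6 RPKM in the controls, in the direction of the labels. VIM, KRT8 and KRT18, which HEK293 cells express, were between 26.5 and 181 RPKM in all 6 libraries. NEFL and NEFM were the other line markers. NEFL was between 26.9 and 88.0 RPKM, with overlap between the groups, and NEFM was between 0.241 and 0.638 RPKM and was not tested. For VIM, KRT8 and KRT18, 3 of 4 tested line markers, each D391N library lay below each control, as it did for 20.7% of all genes tested. KRT8 was at 62.0% of the control mean and VIM at 74.8%, and the part of this in the values that follow was not tested. PTPRC and COL1A1, markers of leukocytes and of fibroblasts, were between 1.34 and 4.05 RPKM, and ALB of the liver was between 0.596 and 1.13 RPKM.

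No single histone transcript passed the test across all transcripts, and the summed level of histone mRNA was lower in the D391N libraries than in the controls. Summed over the 91 transcripts, the level was 6340, 4151 and 6391 RPKM in D391N replicates 1, 2 and 3, and 8519, 8686 and 7195 RPKM in control replicates 1, 2 and 3. The groups did not overlap, and D391N replicate 2 was the lowest library. The mean was 5627 ± 1278 RPKM (SD, n = 3) for D391N and 8133 ± 817 RPKM (SD, n = 3) for the controls, so that D391N-expressing cells had 69.2% of the control level, a log2 ratio of -0.53. Without the H1 genes the sum was 5075, 2505 and 4544 RPKM for D391N against 6683, 6847 and 5430 RPKM for the controls, 63.9% of the control mean. The log2 ratio over all 91 transcripts was -0.14 after quantile normalization and -0.35 without D391N replicate 2. A few genes carried most of the sum. H1-4, H1-2 and H2AC19 held 35.3% of it and the 10 most abundant genes held 71.0%, while 17 of the 66 genes had a mean under 1 RPKM.

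**Figure D1:**
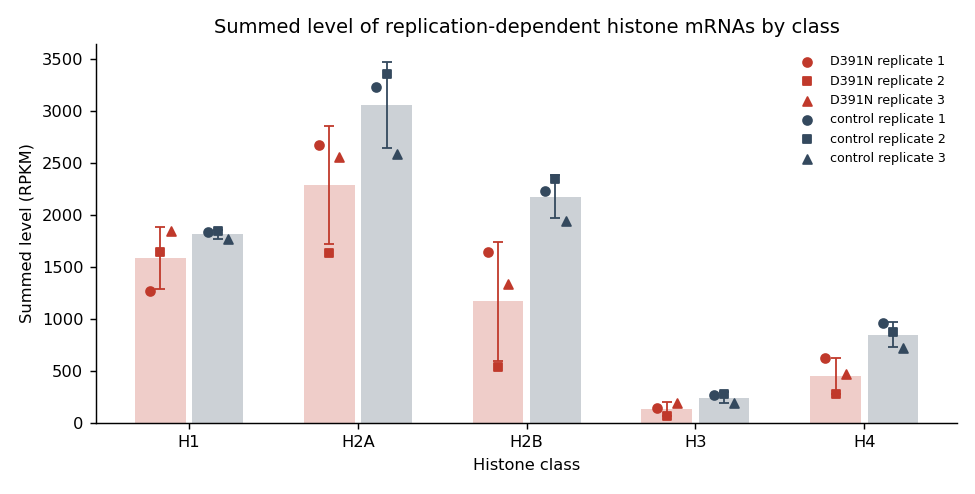
Summed level in RPKM (y axis) of the transcripts of each histone class (x axis). Points are the 6 libraries, bars are the group means and error bars the SD (n = 3). The D391N and control libraries do not overlap for H2B and H4, and D391N replicate 2 is the lowest library for H2A, H2B, H3 and H4.

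The difference was uneven over the classes. For H2B the sum was 1640, 532 and 1332 RPKM for D391N against 2232, 2347 and 1942 RPKM for the controls (53.7% of the control mean). For H4 it was 620, 274 and 468 RPKM against 956, 870 and 715 RPKM (53.6%). In these classes the groups did not overlap. For H3 the sum was 141, 62.4 and 194 RPKM against 264, 278 and 187 RPKM (54.5%), and D391N replicate 3 was above control replicate 3. For H2A it was 2674, 1636 and 2551 RPKM against 3231, 3352 and 2586 RPKM (74.8%), with D391N replicate 1 above control replicate 3. For H1 it was 1265, 1646 and 1846 RPKM against 1836, 1839 and 1765 RPKM (87.5%), and the groups overlapped. Whether the classes differ from one another was not tested.

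For a test of single members, limma was fitted to log2(RPKM + 0.1) of the 54671 transcripts whose mean over the 6 libraries was 1 RPKM or more, with Benjamini-Hochberg adjustment over all of them. Of the 91 histone transcripts, 67 from 49 genes passed this filter. None of the 67 had an adjusted p under 0.05 (0.0604% of all transcripts tested did, 33 in number). The lowest adjusted p was 0.0675. Without D391N replicate 1 the count was 8, all lower, while 4961 of all transcripts then passed. An unadjusted p under 0.05 was found for 23 histone transcripts, 21 of them lower, which is 34.3% of those tested against 17.6% of all transcripts. The log2 fold change (D391N minus control, on the log2(RPKM + 0.1) scale) was negative for 61 of the 67 and its median was -0.93, against -0.072 over all transcripts tested. All 3 D391N libraries were below all 3 controls for 27 histone transcripts (40.3%, against 15.6% of all transcripts tested), and above them for 2 (against 10.1%). Among the 61 are transcripts that passed the filter through the controls alone, so that their negative sign follows from the filter. They are H2BC10, ENST00000469483 of H2BC18, ENST00000607124 of H2BC11, ENST00000314332 of H2BC4, ENST00000613412 of H4C14 and ENST00000621520 of H4C15. H2BC10, ENST00000469483 and ENST00000607124 are also among the 21 and the 27. With all 91 transcripts and no filter the median was -0.72. These are descriptions of the list, with no test over it. Without D391N replicate 2 the median was -0.48, 59 of the 67 were lower, and 28 (41.8%, against 20.2% of all transcripts) lay below every control.

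**Figure D2:**
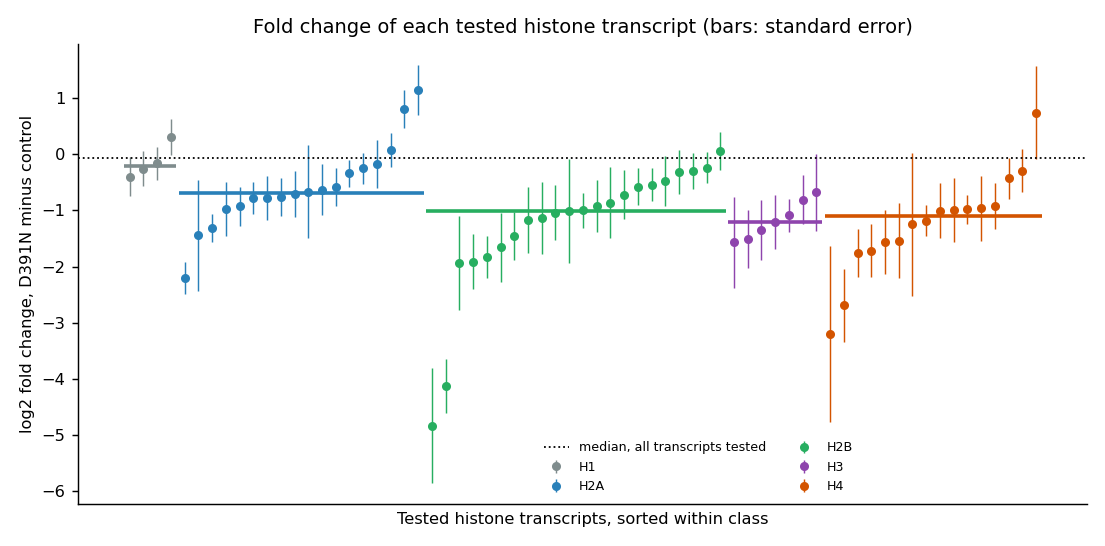
The log2 fold change (y axis, D391N minus control) of each of the 67 tested histone transcripts, sorted within its class on the x axis. Error bars are the standard error, thick lines the class medians (H1 -0.21, H2A -0.69, H2B -1.0, H3 -1.21, H4 -1.09) and the dotted line the median of all transcripts tested (-0.072).

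H1 histones bind the linker DNA between nucleosomes. H1-4, the most abundant member, was at 654, 896 and 859 RPKM in the D391N libraries and at 908, 891 and 862 RPKM in the controls, and the groups overlapped. Its log2 fold change was -0.16 ± 0.29 (SE). H1-2 was at 562, 712 and 932 RPKM against 848, 876 and 863 RPKM, with D391N replicate 3 above every control. After quantile normalization the values of H1-4 and H1-2 were 0.44 and 0.31, and the median of the 4 tested H1 transcripts was 0.37 in place of -0.21, so that this class has no direction that holds across scalings. H1-3 was at 48.0, 36.7 and 52.7 RPKM against 78.8, 70.8 and 37.9 RPKM, again with overlap.

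H2A pairs with H2B in the outer dimers of the nucleosome. H2AC19, the most abundant core histone transcript (ENST00000607355), was at 869, 647 and 910 RPKM in the D391N libraries and at 764, 824 and 705 RPKM in the controls. Its log2 fold change was 0.069 ± 0.30 (SE), and it was -0.025 without D391N replicate 3 and 0.62 after quantile normalization. The annotation has near-identical copies of this gene, H2AC18 and H2AC19, and reads cannot be told apart between them. A second entry was named H2AC19 from an older name and may be H2AC18. The sum over both entries was 876, 649 and 923 RPKM against 768, 852 and 712 RPKM, 105% of the control mean. The next genes were lower. H2AC12 was at 505, 245 and 372 RPKM against 709, 751 and 436 RPKM, with overlap. H2AC20 was at 381, 194 and 327 RPKM against 601, 540 and 512 RPKM, without overlap between the groups. Its log2 fold change was -0.93 ± 0.34 (SE; limma, adjusted p = 0.239). H2AC21 was at 174, 153 and 170 RPKM against 209, 229 and 192 RPKM, without overlap, at 78.8% of the control mean. H2AC14 was among the 6 tested transcripts with a positive value. It was at 64.6, 28.7 and 44.8 RPKM against 27.6, 25.3 and 21.8 RPKM, each D391N library above each control (log2 fold change 0.81 ± 0.34; limma, adjusted p = 0.281). Its reads estimated from the posterior variance were 251, 62 and 169 against 39, 31 and 29.

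The lowest log2 fold changes of single transcripts were those of an H2BC18 transcript and of H2BC10, which passed the filter through the controls alone. As a class H2B was not the lowest, since the medians of H3 (-1.21) and H4 (-1.09) lay below that of H2B. H2BC5, the most abundant H2B gene, was at 718, 150 and 461 RPKM in the D391N libraries and at 820, 939 and 737 RPKM in the controls for the transcript that ends at the stem-loop. No D391N library reached a control, and D391N replicate 2 was far below the other libraries. The log2 fold change was -1.17 ± 0.58 (SE; limma, adjusted p = 0.339). H2BC11 was at 276, 80.4 and 220 RPKM against 354, 414 and 290 RPKM, without overlap, and H2BC4 at 215, 81.6 and 176 RPKM against 325, 237 and 178 RPKM, with overlap. H2BC21 (ENST00000369160) was at 59.8, 28.2 and 111 RPKM against 223, 194 and 232 RPKM, a log2 fold change of -1.91 ± 0.49 (SE; limma, adjusted p = 0.161). All D391N libraries of H2BC21 lay well under the lowest control. H2BC10 is a low member. It was at 0.0772, 0.0853 and 0.180 RPKM in the D391N libraries, a level of fewer than 3 estimated reads in each, and at 4.79, 3.58 and 2.60 RPKM in the controls. With D391N set at a floor of 3 reads per library (0.281 RPKM), H2BC10 would be 13.0-fold under the control mean of 3.66 RPKM. Its control reads were few too, estimated at 51, 39 and 19, so this fold is a rough one. Its adjusted p was 0.0675 at the transcript level and 0.0279 in the limma fit of gene sums. There it was the 1 member of 49 tested genes past the threshold, against 0.141% of all 20623 genes tested. H2BC10 passed the filter through the controls alone (means of 0.114 and 3.66 RPKM), so nothing is read from this call. Its fitted log2 fold change depends on the pseudocount, between -2.04 at 1 RPKM and -4.93 at 0.01 RPKM. The transcript ENST00000469483 of H2BC18 had the lowest log2 fold change, -4.83 ± 1.03 (SE; limma, adjusted p = 0.127), at 0.116, 0.146 and 1.74 RPKM against 4.28, 30.5 and 16.9 RPKM. The reads estimated from the posterior variance were 0, 0 and 4 for D391N against 4, 60 and 19 for the controls. This transcript passed the filter through the controls alone, and its log2 fold change was -3.24 with a pseudocount of 1 RPKM and -5.32 with 0.01 RPKM. The H2BC18 gene sum was 43.0, 18.5 and 85.3 RPKM against 99.1, 114 and 76.0 RPKM, with overlap.

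H3 and H4 form the tetramer at the core of the nucleosome. All 7 tested H3 transcripts were lower, with log2 fold changes between -1.57 and -0.68. H3C2 was at 65.9, 36.0 and 112 RPKM against 127, 127 and 88.9 RPKM, with overlap, and H3C13 at 31.7, 10.9 and 33.5 RPKM against 54.2, 67.4 and 39.3 RPKM, without. H3C14 and H3C15 are near-identical copies, whose sum was 16.9, 8.63 and 21.7 RPKM against 40.2, 36.5 and 33.4 RPKM, 42.9% of the control mean and without overlap.

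Of 16 tested H4 transcripts 15 were lower (54.2% of all transcripts tested were) and 8 lay below every control (15.6% of all transcripts tested did). Among the 15, ENST00000613412 of H4C14 and ENST00000621520 of H4C15 passed the filter through the controls alone. H4C3, the most abundant, was at 252, 120 and 185 RPKM against 324, 211 and 198 RPKM, with overlap. H4C8 was at 108, 22.2 and 73.3 RPKM against 150, 185 and 162 RPKM, a log2 fold change of -1.56 ± 0.57 (SE; limma, adjusted p = 0.241). H4C5 was at 83.4, 60.1 and 71.1 RPKM against 146, 160 and 116 RPKM, and the 3 D391N libraries lay close together at 50.8% of the control mean (limma, adjusted p = 0.169). H4C12 was at 7.57, 2.47 and 1.46 RPKM against 30.5, 23.0 and 11.5 RPKM, without overlap (17.7% of the control mean; limma, adjusted p = 0.149). The reads of H4C12 estimated from the posterior variance were 19, 2 and 1 against 78, 65 and 8, so its level is uncertain. H4C4 was at 68.3, 34.8 and 66.8 RPKM against 130, 126 and 65.3 RPKM, with overlap. H4C14 and H4C15 are near-identical, and their sum was 74.9, 21.2 and 42.5 RPKM against 113, 109 and 110 RPKM. The controls of this pair lay close together, and the D391N mean was 41.7% of theirs. The H4C14 transcript ENST00000578186 alone had a log2 fold change of -3.20 ± 1.56 (SE), at 15, 0.128 and 13.8 RPKM against 32.2, 47.8 and 23.8 RPKM, and ENST00000618193 had a value of 0.74 ± 0.83 (SE). Without D391N replicate 2 the value of ENST00000578186 was -1.20, and with precision weights it was -1.51. Values of single copies depend on how reads were divided between them.

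D391N replicate 2 set much of the size of these differences. The deviation of a transcript from its mean over the 6 libraries, on the log2(RPKM + 0.1) scale, had a median over the 67 histone transcripts of -0.10, -1.16 and -0.13 for D391N replicates 1, 2 and 3, and of 0.58, 0.55 and 0.31 for control replicates 1, 2 and 3. In D391N replicate 2 it was -0.92 for H2A, -1.30 for H2B, -1.78 for H3 and -1.50 for H4, and -0.13 for H1. D391N replicates 1 and 3 lay between replicate 2 and the controls for H2B and H4, and D391N replicate 3 was at control replicate 3's level for H2A (0.015 and 0.017). Histone mRNAs are short, and other transcripts of 380 to 550 bases were compared. In 5931 of them the same median was 0.037, 0.086 and -0.13 for D391N against 0.021, 0.11 and 0.019 for the controls, and their median log2 fold change was -0.065. The 41 histone transcripts of the same lengths had a median of -0.97.

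**Figure D3:**
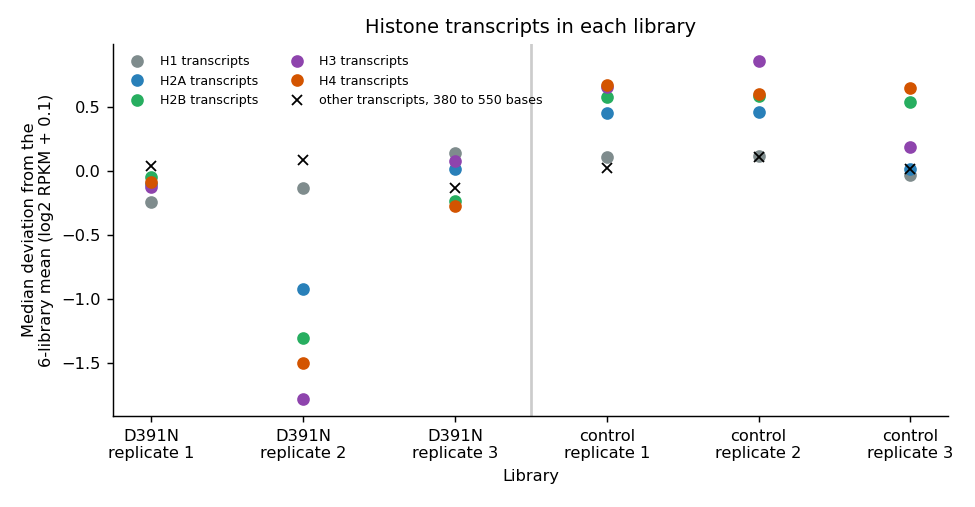
Median deviation from the 6-library mean (y axis, log2(RPKM + 0.1)) in each library (x axis) for the tested transcripts of each histone class and for 5931 other transcripts of 380 to 550 bases. The core histone classes are lowest in D391N replicate 2 (-0.92 to -1.78), where H1 is at -0.13 and the other short transcripts are at 0.086.

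Some histone genes also make longer, spliced or read-through transcripts that end past the stem-loop and are known to be polyadenylated in many cases. By the GRCh37 annotation, 60 of the 91 transcripts ended within 60 bases of the stem-loop, 26 ended further on, 1 ended before it and 4 could not be placed. The median log2 fold change was -0.92 for the 43 tested transcripts of the first kind and -0.94 for the 20 tested of the second kind. Of the transcripts that passed the filter through the controls alone, all but H2BC10 are among these 20. In 9 genes the table holds both forms. The means of the forms lay on opposite sides of the control in H2AC6 and H2BC15. In H4C16 they did so only with transcripts that also begin past the stem-loop. The H2AC6 transcript ending at the stem-loop (ENST00000377791) was at 4.17, 3.62 and 5.50 RPKM in the D391N libraries and at 20.5, 24.9 and 16.6 RPKM in the controls, 21.4% of the control mean and without overlap (limma, adjusted p = 0.0675). Its longer transcripts summed to 15.9, 7.36 and 18.4 RPKM against 10.4, 11.6 and 11.3 RPKM, 125% of the control mean and with overlap. Among these, ENST00000314088 had the highest log2 fold change of any tested histone transcript, 1.14 ± 0.45 (SE; limma, adjusted p = 0.265). By the posterior variance the reads given to either of these transcripts with certainty were between 0 and 24 per library, so the split among the forms of H2AC6 is uncertain. H4C16 on chromosome 12 was at 11.3, 3.20 and 8.40 RPKM against 20.3, 25.8 and 21.6 RPKM in the form ending at the stem-loop (33.8% of the control mean). Its other forms summed to 2.70, 3.31 and 2.13 RPKM against 2.67, 2.03 and 3.03 RPKM (105%, with overlap). Among them, ENST00000537853 begins past the stem-loop, at a mean of 0.770 RPKM for D391N against 0.129 RPKM for the controls. ENST00000358064 and ENST00000540565, which begin before the stem-loop, were at 82.4% and 79.7% of the control mean. In H2BC11 both forms were lower, at 54.4% and 48.4% of the control mean. H2BC15 was detected mainly as longer transcripts, at 34.6, 21.1 and 35.1 RPKM against 39.5, 42.7 and 43.6 RPKM (72.2%), and its form ending at the stem-loop was at 1.25, 1.25 and 1.49 RPKM against 1.48, 0.969 and 1.44 RPKM (103%, with overlap).

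**Figure D4:**
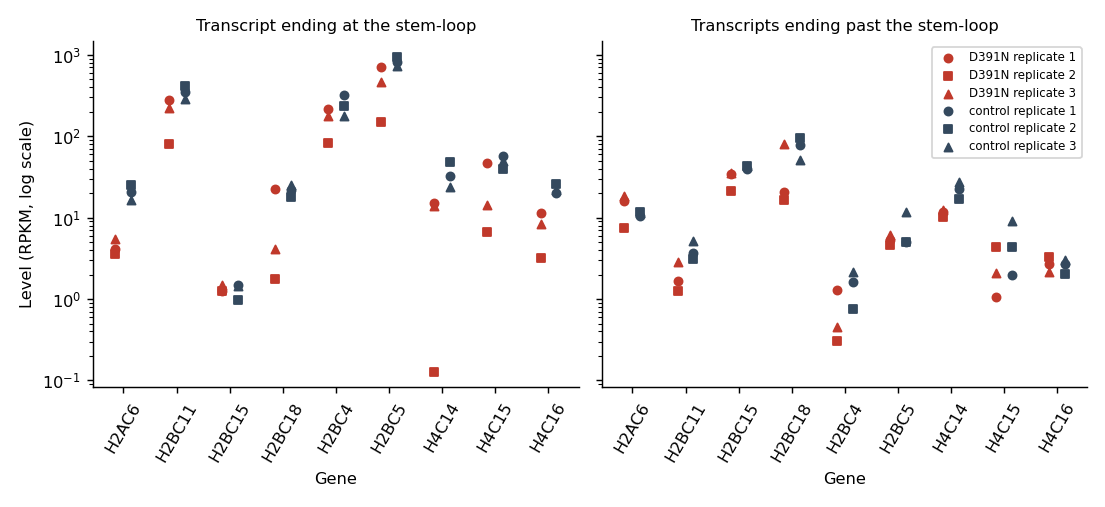
Level in RPKM (y axis, log scale) of the transcript ending at the stem-loop (left) and of the summed longer transcripts (right) for the 9 genes with both forms (x axis). Points are single libraries. In H2AC6 the form ending at the stem-loop is at 21.4% of the control mean and the longer forms are at 125%.

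The study's list of DIS3L2-bound windows from crosslinking and immunoprecipitation named 37 of the 66 genes. The 51 tested transcripts of listed genes had a median log2 fold change of -0.93 and 21 of them (41.2%) lay below every control. The 16 tested transcripts of genes without a listed window had a median of -0.94, and 6 of them (37.5%) lay below every control, where 15.6% of all transcripts tested did. The listed genes summed to 70.9% of the control mean and the others to 60.9%. By position, the 42 tested transcripts of the large cluster on chromosome 6 had a median of -0.77 and the 17 of the first cluster on chromosome 1 had a median of -1.18. The 2 transcripts of the second chromosome 1 cluster, of H2AC25 and H2BC26, had values of -0.25 and -0.92. By stem-loop, the 16 tested transcripts of genes with the GGCCC stem had a median of -1.09 and the 48 of genes with a GGCTC stem had a median of -0.80. These subsets were not tested against each other.

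Genes around the histone mRNAs were compared by limma at the level of gene sums, where 0.141% of 20623 genes had an adjusted p under 0.05, 22.7% an unadjusted p under 0.05, and the median log2 fold change was -0.091. At this level 46 of 49 tested histone genes were lower, 23 lay below every control (46.9%, against 20.7% of all genes), and the median was -0.92. H2BC10, which passed the filter through the controls alone, is among the 46 and the 23. Of 10 tested replication-independent histones and variants, which are made outside S phase too and mostly from polyadenylated mRNAs, none passed the threshold, 3 were lower and 2 higher at an unadjusted p under 0.05, and the median was -0.30. H2AX, the variant phosphorylated at DNA breaks, whose mRNA can end at a stem-loop, was at 24.9, 21.6 and 21.8 RPKM against 34.9, 34.3 and 35.4 RPKM (limma, adjusted p = 0.0920). H3-3A, a gene of the replacement histone H3.3, was higher in all D391N libraries, at 345, 573 and 454 RPKM against 254, 278 and 224 RPKM (limma, adjusted p = 0.129). H3-3B, which encodes the same protein, was at 124, 87.9 and 159 RPKM against 134, 137 and 129 RPKM, and H2AZ1 at 258, 134 and 191 RPKM against 251, 281 and 224 RPKM, each with overlap.

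Of the 20 genes of histone mRNA transcription, 3′ end processing and decay, none passed the threshold and 3 were higher and none lower at an unadjusted p under 0.05, with a median log2 fold change of 0.072. SLBP was at 88.2, 70.1 and 99.0 RPKM in the D391N libraries and at 81.7, 84.5 and 86.2 RPKM in the controls, a value of 0.014 ± 0.17 (SE). NPAT was at 28.2, 26.8 and 26.1 RPKM against 20.4, 19.7 and 23.1 RPKM and ERI1 at 29.3, 34.0 and 33.3 RPKM against 27.5, 24.4 and 22.4 RPKM. In both genes each D391N library was above each control (limma, adjusted p = 0.183 and 0.193). The uridylyl transferase TUT4, named after its value was seen, was the third gene with an unadjusted p under 0.05, at 71.0, 121 and 121 RPKM against 67.7, 66.2 and 68.4 RPKM (155% of the control mean; limma, adjusted p = 0.204). LSM11 of the U7 snRNP, which cleaves histone pre-mRNA, was at 4.68, 4.52 and 3.44 RPKM against 5.39, 5.11 and 4.88 RPKM. UPF1, a helicase of histone mRNA decay, and TUT7 overlapped between the groups, with values of -0.21 and 0.085.

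The S-phase list gives mRNA levels of replication genes in the same libraries, in which replication itself was not measured. Of its 22 genes none passed the threshold, 3 were higher and 1 lower at an unadjusted p under 0.05, and the median log2 fold change was 0.067. PCNA, the sliding clamp of DNA polymerase, was at 216, 175 and 301 RPKM in the D391N libraries and at 261, 261 and 195 RPKM in the controls. RRM2 of ribonucleotide reductase was at 134, 173 and 138 RPKM against 133, 145 and 142 RPKM, and the cyclins CCNE2 and CCNA2 had values of 0.11 and 0.16, all with overlap. The 1 gene lower at an unadjusted p under 0.05 was GINS2 of the replicative helicase, at 48.4% of the control mean, and the 3 higher were CDC6 (162%), which loads that helicase, CCNE1 (131%) and POLA1 (135%). MCM7 (74.8%) also lay below every control and MCM6 (124%) above every control. These 6 genes were named after their values were seen. In D391N replicate 2, where core histone mRNAs were lowest, RRM2 was above every control and PCNA and CCNA2 (22.2 RPKM) were below every control. Of 8 histone chaperones none passed the threshold, 2 were lower and 1 higher at an unadjusted p under 0.05. In bulk RNA, fewer cells in S phase and less histone mRNA per S-phase cell cannot be told apart.

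**Figure D5:**
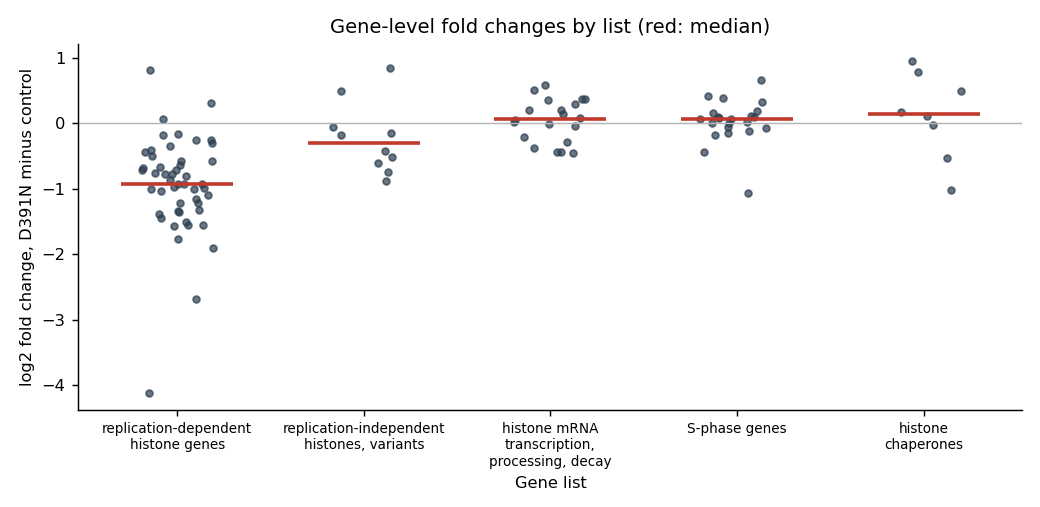
Gene-level log2 fold change (y axis, D391N minus control) of the tested genes of each list (x axis). Points are genes and red lines are medians (-0.92 for replication-dependent histone genes, -0.30 for replication-independent histones and variants, 0.072 for histone mRNA transcription, processing and decay, 0.067 for S-phase genes and 0.15 for chaperones).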

How the data were processed

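Total RNA of 3 D391N and 3 control libraries was depleted of rRNA. The authors aligned reads with Segemehl to Ensembl transcripts of hg38 and estimated levels with BitSeq, versions not given in the sources used here. They deposited the natural log of RPKM per transcript and, as a score, its posterior variance. BitSeq divides reads among similar transcripts, so near-identical copies depend on each other. RPKM were compared by limma 3.58.1 in R 4.3.3 on log2(RPKM + 0.1), with trend, no block, a mean of at least 1 RPKM and Benjamini-Hochberg adjustment at 0.05. The fit was tested on simulated data. Reads behind a value were estimated from the posterior variance. Symbols and positions came from GENCODE 44 on GRCh37, which named 88.2% of the gene identifiers. Of 70 member symbols in RefSeq, 65 were found, 3 transcripts by transcript identifier and 1 by its name in the study's list. H2BC7, H2BC8, H4C2 and H4C6 were not analysed here, nor H2AC18 under that name, though the second H2AC19 entry, named from an older name in the study's list, may be H2AC18. Named members were the 4 most abundant genes of each class, the 3 highest and 3 lowest log2 fold changes, and the near-identical pairs. Other members were named after their values were seen. The members and lists were chosen with earlier results of these data known. Same-numbered libraries did not deviate together over all transcripts tested (correlations of 0.0867, 0.055 and -0.111), and the main fit used no pairing. These correlations do not show whether same-numbered libraries shared a culture or a run. 1 gene of the histone variant list is not reported here and was left out of its counts.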

Additional observations from a re-analysis of the deposited data

How the results depend on the processing

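No histone transcript passed the threshold of the limma fit, 23 having an unadjusted p under 0.05. The count was 2 with a pseudocount of 1 RPKM (H2BC10 and H2AC6), and 1 (H2BC10) with at least 10 estimated reads, without the trend, with precision weights or with gene sums. Leaving out 1 library gave 0 to 8, with 8 without D391N replicate 1 and 0 without any other. Without D391N replicate 1, 4961 of all 54671 transcripts tested passed as well. Among the 8, H2BC10 and the H2BC11 transcript ENST00000607124 (means of 0.502 RPKM for D391N and 2.09 RPKM for the controls) passed the filter through the controls alone. The median log2 fold change of the histone transcripts stayed negative, between -1.10 and -0.48 with 1 library left out, the last without D391N replicate 2. With replicate number as a block it was -0.93 with 0 calls, and all other settings moved it by less than the spread between libraries. The log2 ratio of the sum was -0.14 after quantile normalization and -0.63 to -0.35 with 1 library left out. Counts in the lists were 0, and 0 to 4 for histone variants, 0 to 1 for processing and decay, 0 to 2 for S-phase genes and 0 to 2 for chaperones with 1 library left out, each highest without D391N replicate 1. In that setting 2259 of all 20623 genes tested passed, so these counts are not read as results about the lists. With 1 library left out, 27 to 40 histone transcripts lay below every control (40.3% to 59.7%). The share of all transcripts tested rose too, from 15.6% with all 6 libraries to between 18.2% and 26%. Histone transcripts with a negative value were 59 to 63 in these settings, which were chosen after seeing the data. Directions reversed for H1-4 (0.44) and H1-2 (0.31) after quantile normalization, H2AC19 (-0.025 to 0.22 with 1 library left out, negative without D391N replicate 3), and, as gene sums that hold other transcripts, H4C14 (-1.55) and H2AC6 (-0.86). Apart from the last pair, the cause was not tested. Of the other values of named transcripts, 450 kept direction and side of the threshold and 6 passed it. Depth limits the members under 1 RPKM, which have few reads. Some members above 1 RPKM also had few reads by the posterior variance, among them H4C12, and H3C14 and H3C15 with between 0 and 2 per library.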

Other observations

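Several members were at or near the level of no reads. In 8 genes, H1-5, H2AC1, H2BC1, H2BC14, H3C11, H3C12, H4C7 and H4C13, the mean was under 1 RPKM and no library had more than 3 estimated reads. Among the genes known for their expression in testis, H1-6 was detected at 1.57, 1.27 and 1.89 RPKM in the D391N libraries and at 1.18, 1.23 and 1.29 RPKM in the controls, with overlap. H2AC1 was at 0.0505 to 0.290 RPKM and H2BC1 at 0.0721 to 0.452 RPKM over the 6 libraries.

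In 10 places an H2A and an H2B gene lie head to head with starts less than 1000 bases apart in GRCh37. The H2A gene had the higher mean RPKM in 6 of these pairs. H2AC20 and H2BC21, with starts 236 bases apart, had means of 426 and 148 RPKM over the 6 libraries and gene-level log2 fold changes of -0.93 and -1.90. H2AC14 and H2BC14, with starts 245 bases apart, had means of 35.5 and 0.112 RPKM. In the 8 pairs with both genes tested, both values were negative, as were those of 46 of all 49 tested histone genes. The H2B gene had the lower value in 4 of these pairs.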
